A study of Homo sapiens with 4 samples.

Results

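Noncoding transcripts of 10 nucleotide excision repair genes were compared between oxaliplatin-resistant and wild-type cells labelled HepG2, an established human line of liver cancer. The genes were *XPC*, *DDB2*, *ERCC6*, *ERCC8*, *ERCC3*, *ERCC2*, *XPA*, *ERCC1*, *ERCC4* and *ERCC5*. Every noncoding transcript that carries one of these gene names in GENCODE release 29 was taken, which gave 48 of the 106179 transcripts in the deposited table. The resistant group had 2 libraries and the wild-type group had 2 libraries. The resistant cells are labelled as resistant to oxaliplatin, a platinum drug that forms adducts on DNA. How the resistance arose is not stated, and the labels give neither a dose nor a selection scheme. The treatment field reads none for both groups, so no drug exposure at harvest is recorded. Both groups were grown in DMEM with serum, and neither separate cultures behind the libraries nor a clonal origin of the resistant cells is stated. P-values are therefore set against library-to-library variation alone, which may be technical. The 10 gene sums and the leading transcripts are described below with their values, and the other transcripts by counts and ranges. No gene sum, and none of the 42 transcripts that could be tested, passed the test for a difference between the groups.

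Nucleotide excision repair removes lesions that distort the DNA helix, including ultraviolet photoproducts and platinum adducts that link neighbouring bases on a strand. Damage is sensed either across the genome, by XPC with help from DDB2, or at a stalled RNA polymerase, by the ERCC6 and ERCC8 proteins. The TFIIH helicases ERCC3 and ERCC2 then open the helix, XPA checks the damage, and the nucleases ERCC4 with ERCC1 and ERCC5 cut the strand on either side. Removal of platinum adducts by this pathway is a known route by which tumour cells tolerate platinum drugs. The pathway's proteins come from mRNAs, whereas the transcripts counted here are the noncoding ones of the same genes, most of which keep part of an intron.

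The 48 transcripts comprised 33 annotated as retained intron and 15 annotated as processed transcript. They were all 48 of the noncoding transcripts that release 29 lists for these genes. Of the 44 protein-coding transcripts listed for them 1 was in the table, and of the 27 classed as targets of nonsense-mediated decay 0 were. Apart from that 1 transcript, of *ERCC5*, the mRNAs of these genes were not analysed here. Retained-intron transcripts held 92.4% ± 0.43 of the noncoding counts of the 10 genes in resistant libraries and 90.4% ± 3.6 in wild-type libraries (SD, n = 2 each).

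The transcript of highest mean level in each gene, called its leading transcript, was a retained-intron transcript in all genes but *XPA*. This level was not corrected for length, which favours long transcripts, so the order within a gene could differ per length. ERCC6-209, the leading transcript of *ERCC6*, has 11026 bases, against 418 for ERCC6-207, a processed transcript and the next in level. In 9 of the 10 leading transcripts an exon of a coding transcript runs on into the intron that follows it. These junctions are shown because they set the leading noncoding transcripts apart from the coding transcripts that splice there. In DDB2-206 the first bases after the marked exon end are also exon in the coding transcript DDB2-215, whose donor lies further on. Each line holds the last 30 exon bases and the first 30 intron bases, 5′ to 3′ on the gene's strand in GRCh38, from the GENCODE release 29 transcript sequences. Capitals mark the first 2 intron bases, which splicing would use as the donor site.
XPC-204 (chr3:14164783-14164842, minus strand): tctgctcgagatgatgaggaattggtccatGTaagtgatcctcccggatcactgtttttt
DDB2-206 (chr11:47215234-47215293, plus strand): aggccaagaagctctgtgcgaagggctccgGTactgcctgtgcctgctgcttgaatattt
ERCC6-209 (chr10:49505854-49505913, minus strand): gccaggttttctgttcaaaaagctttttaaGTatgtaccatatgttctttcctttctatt
ERCC8-208 (chr5:60903618-60903677, minus strand): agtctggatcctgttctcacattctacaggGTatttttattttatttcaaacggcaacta
ERCC3-209 (chr2:127289659-127289718, minus strand): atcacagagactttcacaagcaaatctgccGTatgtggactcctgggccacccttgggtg
ERCC2-213 (chr19:45369040-45369099, minus strand): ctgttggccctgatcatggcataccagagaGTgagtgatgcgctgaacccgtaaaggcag
ERCC1-217 (chr19:45414831-45414890, minus strand): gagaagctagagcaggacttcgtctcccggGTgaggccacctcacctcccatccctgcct
ERCC4-208 (chr16:13926727-13926786, plus strand): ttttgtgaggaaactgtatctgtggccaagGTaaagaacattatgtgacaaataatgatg
ERCC5-203 (chr13:102853843-102853902, plus strand): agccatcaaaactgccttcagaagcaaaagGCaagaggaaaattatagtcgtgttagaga
The donor reads GT in 8 of these 9 transcripts and GC in ERCC5-203. XPA-203 had no such junction.

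Some of these transcripts hold a whole intron. ERCC3-209 and ERCC3-218, the leading pair of *ERCC3*, both keep a 187-base intron that the coding transcript ERCC3-221 splices out. The coding transcript ERCC3-204 splices out only 169 bases from the same donor, so the last bases of the 187 are exon there. ERCC2-213 keeps a 77-base intron that ERCC2-206 splices out. The 187-base and the 77-base intron are printed with 20 exon bases on each side, and capitals mark their first 2 and last 2 bases. They are shown because of the spread within pairs. ERCC3-209 held most of the difference within the resistant pair of *ERCC3*, and ERCC2-213 most of that within both pairs of *ERCC2*. ERCC3-218 keeps the same intron but differed less, with 2608 and 1990 counts in resistant libraries, against 304 and 4174 for ERCC3-209.
ERCC3-218 and ERCC3-209 (chr2:127289482-127289708, minus strand): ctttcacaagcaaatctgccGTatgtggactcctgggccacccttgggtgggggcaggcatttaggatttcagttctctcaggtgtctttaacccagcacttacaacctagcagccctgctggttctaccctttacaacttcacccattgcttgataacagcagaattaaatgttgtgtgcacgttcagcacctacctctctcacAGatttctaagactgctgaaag
ERCC2-213 (chr19:45368973-45369089, minus strand): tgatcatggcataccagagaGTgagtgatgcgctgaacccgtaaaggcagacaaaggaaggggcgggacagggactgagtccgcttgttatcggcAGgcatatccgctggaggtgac
Because ERCC3-209 and ERCC3-218 share this intron, a read that falls inside it does not tell them apart.

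Library totals were 43473826 and 44063444 counts in resistant replicates 1 and 2, and 38113398 and 34898860 counts in wild-type replicates 1 and 2. The 10 genes took 0.0731% ± 0.0049 of all counts in resistant libraries and 0.0683% ± 0.0142 in wild-type libraries (SD, n = 2 each). Levels below are CPM, counts scaled to a common library size, with TMM factors computed separately for gene sums and for transcripts. A count of 3, used as the floor of detection, corresponds to between 0.0798 and 0.110 CPM on the gene scale, and covers counting error only. The labelled cell type was checked on the noncoding transcripts of hepatocyte marker genes. Of 20 such genes 14 had rows, and 8 of these were at 0 in all 4 libraries, among them *AFP*, *SERPINA1* and *TTR*. *ALB* had 0 and 0 counts in resistant libraries and 8 and 0 in wild-type libraries. *CPS1*, a urea cycle enzyme, was the one hepatocyte gene above 1 CPM in all 4 libraries. The summed hepatocyte list, in CPM of the library total, was 54.0 and 42.7 in resistant libraries and 56.0 and 67.5 in wild-type libraries. The 13 fibroblast and endothelial genes with rows summed to 236 and 197 CPM in resistant libraries and 200 and 229 CPM in wild-type libraries. Nearly all of this sum lay in *VIM*, *FN1* and *COL5A1*, the only 3 of them above 1 CPM in all 4 libraries. Another 3, *COL1A2*, *KDR* and *SPARC*, were at 0 in all 4 libraries. Of the 3 blood genes with rows, 2 were at 0 in all libraries and *PTPRC* had 27 counts in resistant replicate 1 alone. The mRNAs of these markers were not analysed here, so the label could be checked only in this limited way.

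The test asked whether each gene's noncoding transcripts, summed, differed between resistant and wild-type cells. By edgeR's quasi-likelihood test with Benjamini-Hochberg adjustment over all 13745 genes tested, 0 of the 10 gene sums passed an adjusted p of 0.05, against 0% of all genes. At an unadjusted p under 0.05, 0 of 10 passed in edgeR, against 8.67% of all genes. DESeq2 passed 0 of 10 after adjustment, against 4.61% of all genes, and limma-voom 0 of 10, against 0%. Each passed 1 of 10 unadjusted, *ERCC8* in both, against 12.3% of all genes in DESeq2 and 8.87% in limma-voom. The 2 libraries of one group lay wholly outside those of the other in 1 of the 10 genes, again *ERCC8*, against 43% of all genes. The tested *ERCC5* sum includes its protein-coding transcript, and without that transcript the *ERCC5* groups did not overlap either. The median log2 fold change of the 10 genes, resistant over wild type, was 0.04, with 5 of 10 above 0. Over all genes the median was 0.01 and 50.8% were above 0. With 2 libraries a group, an exact permutation test of a single value cannot go below a two-sided p of 0.33.

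**Figure D1:**
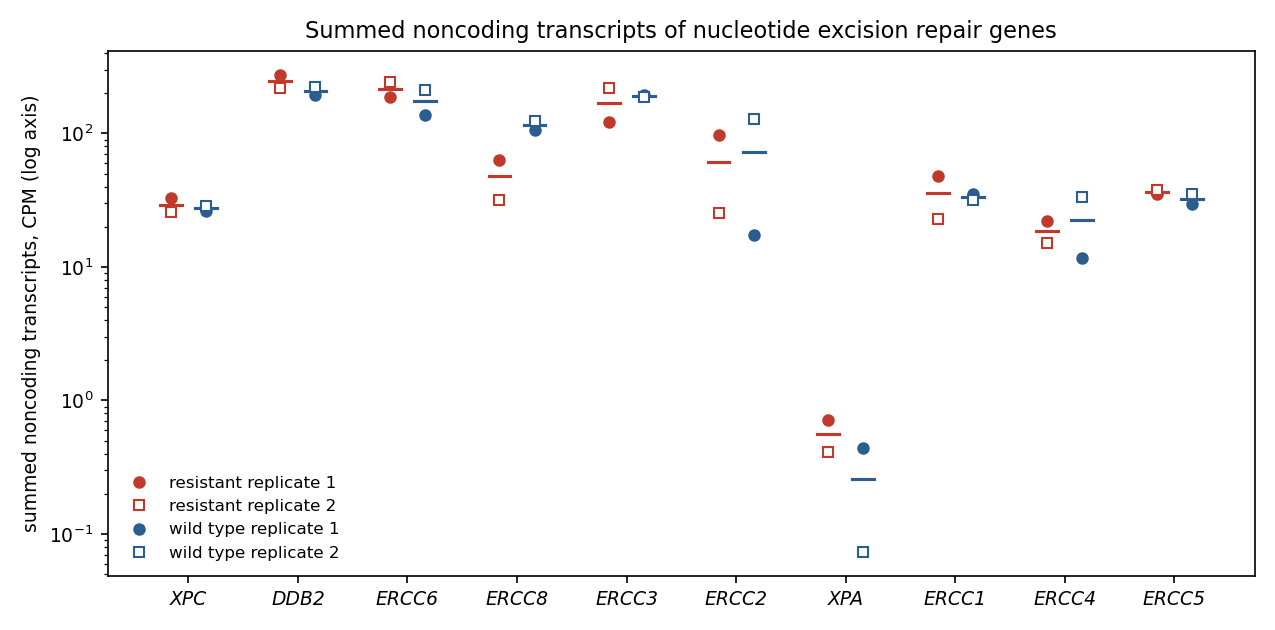
Summed noncoding CPM (log axis) of each of the 10 genes, with 1 point per library, resistant libraries left of wild-type libraries, and a bar at the group mean. The groups overlap in every gene but *ERCC8*, where resistant libraries at 63.5 and 31.8 CPM lie below wild-type libraries at 106 and 124 CPM, and *ERCC5*, whose noncoding sum was 35.3 and 37.8 CPM in resistant libraries and 29.5 and 35.0 CPM in wild-type libraries.

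*XPC* and *DDB2* act where damage is sensed across the genome. *XPC* (chr3:14145147-14178783, minus strand) encodes the protein that binds the distorted helix, and its noncoding sum was 33.0 and 25.6 CPM in resistant libraries and 26.4 and 28.4 CPM in wild-type libraries. The wild-type values lie between the resistant ones. The log2 fold change was 0.09 ± 0.31 (SE), with a 95% interval of -0.78 to 0.97 and an edgeR adjusted p of 0.959. XPC-204 (ENST00000455144) held a nearly fixed part of this sum, 67.3% and 65.3% of the gene's counts in resistant libraries and 67.5% and 65.4% in wild-type libraries. Its 4 transcripts kept the same order in all libraries but resistant replicate 2, where XPC-202 lay above XPC-206. XPC-202 and XPC-206 share exon bases with the antisense gene AC093495.1.

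*DDB2* (chr11:47214465-47239240, plus strand), which encodes the subunit of the ultraviolet-damage binding complex that finds photoproducts in chromatin, had 276 and 218 CPM in resistant libraries and 193 and 224 CPM in wild-type libraries. Resistant replicate 1 was highest and the groups overlapped, with a log2 fold change of 0.24 ± 0.26 (SE), a 95% interval of -0.51 to 0.996 and an edgeR adjusted p of 0.850. DDB2-206 (ENST00000612309) carried 90.5% and 80.8% of the counts in resistant libraries and 86.6% and 78.5% in wild-type libraries. It had 9380 and 6456 counts in resistant libraries and 4937 and 4790 in wild-type libraries, so both resistant libraries were above both wild-type ones, with an edgeR adjusted p of 0.968. DDB2-210 (ENST00000615695) had 532 and 581 counts in resistant libraries and 284 and 269 in wild-type libraries, also without overlap, with a log2 fold change of 0.64 and an edgeR adjusted p of 0.884. DDB2-207, named after its values were seen, did not overlap in the other direction, at 7.63 and 7.15 CPM in resistant libraries and 8.88 and 10.02 CPM in wild-type libraries, with an edgeR adjusted p of 0.968.

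*ERCC6* and *ERCC8* act in transcription-coupled repair. *ERCC6* (chr10:49455368-49539538, minus strand) encodes CSB, the ATPase that recognises the stalled polymerase. Its noncoding sum was 189 and 242 CPM in resistant libraries and 137 and 212 CPM in wild-type libraries. The highest value was a resistant library and the lowest a wild-type one, but the groups overlapped. The log2 fold change was 0.31 ± 0.34 (SE), with a 95% interval of -0.68 to 1.29 and an edgeR adjusted p of 0.859. ERCC6-209 (ENST00000623073), at 11026 bases the longest of the 48 transcripts, had 4921 and 7568 counts in resistant libraries and 1848 and 4409 in wild-type libraries. That was 69.4% and 85.4% of the gene in resistant libraries and 45.6% and 76.5% in wild-type libraries. ERCC6-207 had 760 and 948 counts in resistant libraries and 930 and 358 in wild-type libraries, which overlapped. ERCC6-205, chosen after its values were seen because it had the smallest unadjusted p of the 42 tested transcripts, had 342 and 308 counts in resistant libraries and 1230 and 330 in wild-type libraries. Wild-type replicate 1 alone stood high, and in CPM both resistant libraries, at 7.52 and 7.02, were below the wild-type ones, at 34.1 and 9.99. The log2 fold change of ERCC6-205 was -1.60, with an edgeR unadjusted p of 0.113 and an adjusted p of 0.831.

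*ERCC8* (chr5:60873831-60945073, minus strand), which encodes CSA, the substrate receptor of the ubiquitin ligase that acts at the stalled polymerase, was the gene whose groups stood apart in the tested sums. Its noncoding sum was 63.5 and 31.8 CPM in resistant libraries and 106 and 124 CPM in wild-type libraries. Both resistant libraries lay below both wild-type ones, a pattern shown by 20.5% of all genes in that direction. The means were 47.7 ± 22.4 CPM in resistant libraries and 115.0 ± 12.4 CPM in wild-type libraries (SD, n = 2 each), so that the resistant mean was 2.41-fold lower, while the resistant libraries differed 2.00-fold from each other. The log2 fold change was -1.27 ± 0.44 (SE), with an approximate 95% interval of -2.53 to -0.02. This did not pass the test, with an edgeR unadjusted p of 0.0505 and an adjusted p of 0.578. DESeq2 gave an unadjusted p of 0.0168 and an adjusted p of 0.199, and limma-voom gave an unadjusted p of 0.0359 and an adjusted p of 0.543. Without resistant replicate 2 the log2 fold change was -0.85, against -1.85 without resistant replicate 1. In bulk RNA, fewer cells that hold a transcript and less of it per cell cannot be told apart.

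The *ERCC8* difference between group means, which did not pass the test, lay in 1 transcript. ERCC8-208 (ENST00000497892) had 1373 and 90 counts in resistant libraries and 2513 and 2409 in wild-type libraries. Resistant replicate 2 was far below the other libraries, and the resistant pair differed 14.7-fold while the wild-type pair lay close together. The share of ERCC8-208 in the gene was 57.5% and 7.73% in resistant libraries and 80.0% and 71.5% in wild-type libraries. Its log2 fold change was -2.15 ± 1.35 (SE), with an edgeR adjusted p of 0.910. The other *ERCC8* transcripts together had 1014 and 1075 counts in resistant libraries and 630 and 961 in wild-type libraries. That was 28.2 ± 1.69 CPM in resistant libraries and 28.3 ± 9.90 CPM in wild-type libraries (SD, n = 2 each), so without ERCC8-208 the group means were level and the groups overlapped. This sum without ERCC8-208 was formed after the values were seen and was not tested. ERCC8-205, the next in level, had 572 and 436 counts in resistant libraries and 288 and 573 in wild-type libraries. ERCC8-204 shares 1541 bases with the exon of GNL3LP1, a processed pseudogene on the same strand. ERCC8-208, ERCC8-205, ERCC8-206 and ERCC8-207 each share 94 bases with the antisense gene AC022445.1. Whether counting used strand is not given in the sources used here, so the counts of these overlaps are uncertain.

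*ERCC3* and *ERCC2* encode XPB and XPD, the TFIIH helicases that open the helix around the lesion and that also serve transcription initiation. *ERCC3* (chr2:127257290-127294176, minus strand) had 122 and 219 CPM in resistant libraries and 194 and 187 CPM in wild-type libraries. The resistant libraries lay on either side of the wild-type ones. The log2 fold change was -0.16 ± 0.38 (SE), with a 95% interval of -1.25 to 0.92 and an edgeR adjusted p of 0.939. Resistant replicate 1 differed from the others in make-up. ERCC3-209 (ENST00000494464) had 304 and 4174 counts in resistant libraries and 2769 and 2780 in wild-type libraries, which is 6.64% and 52.1% of the gene in resistant libraries and 48.2% and 54.5% in wild-type libraries. The resistant pair differed 14.2-fold, and the edgeR adjusted p of ERCC3-209 was 0.997. ERCC3-218 (ENST00000646042) had 2608 and 1990 counts in resistant libraries and 1653 and 1220 in wild-type libraries, with an edgeR adjusted p of 0.971. Its share was highest where that of ERCC3-209 was lowest, at 56.9% in resistant replicate 1. Shares are parts of a whole, so a lower share of ERCC3-209 by itself raises the others. In CPM, ERCC3-218 was at 57.3 and 45.3 in resistant libraries and 45.9 and 36.9 in wild-type libraries. The *ERCC3* sum without ERCC3-209 was 109 ± 6.43 CPM in resistant libraries and 93.0 ± 10.9 CPM in wild-type libraries (SD, n = 2 each), and both resistant libraries then lay above both wild-type ones. That sum was formed after the values were seen and was not tested.

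**Figure D2:**
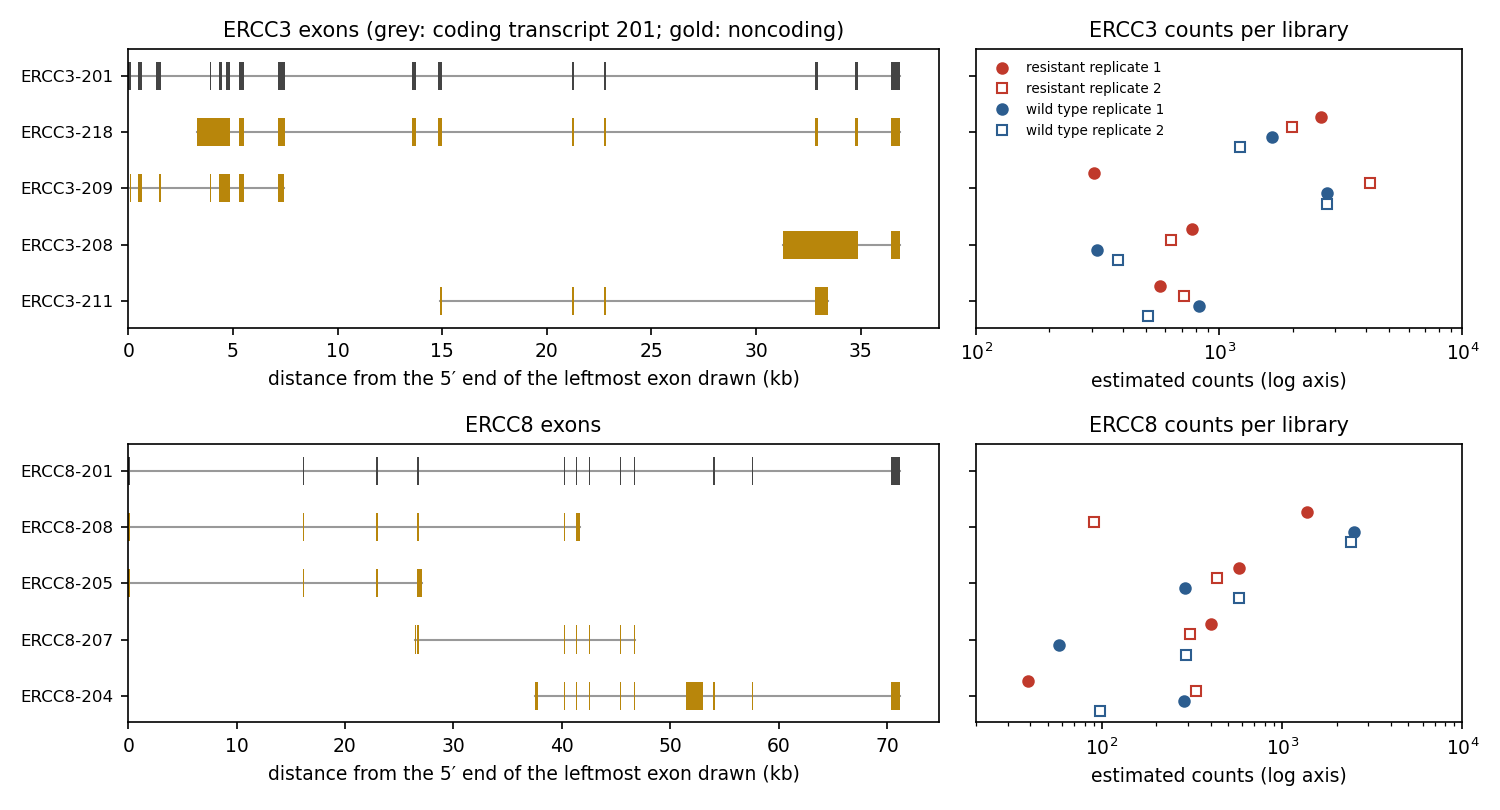
Exon maps of *ERCC3* and *ERCC8* noncoding transcripts (gold) below a coding transcript (grey), in kilobases from the 5′ end, beside their estimated counts in each library (log axis). ERCC3-209 was low in resistant replicate 1 at 304 counts and ERCC8-208 was low in resistant replicate 2 at 90 counts, whereas their wild-type libraries lay close together.

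*ERCC2* (chr19:45349837-45370918, minus strand) had the widest spread of the 10 gene sums, with 97.1 and 25.4 CPM in resistant libraries and 17.4 and 129 CPM in wild-type libraries. Each group had a high and a low library, with a difference of 3.83-fold in the resistant pair and 7.39-fold in the wild-type pair. The log2 fold change of -0.26 ± 1.22 (SE), with a 95% interval of -3.76 to 3.25 and an edgeR adjusted p of 0.971, leaves its direction undetermined. ERCC2-213 (ENST00000646507), a transcript of 22 exons with 97.5% of its bases in coding exons, carried this spread. It had 2417 and 319 counts in resistant libraries and 272 and 2786 in wild-type libraries. ERCC2-211 had 829 and 301 counts in resistant libraries and 148 and 363 in wild-type libraries, so it was low in the same libraries. ERCC2-213 shares 299 bases with *KLC3*, a protein-coding gene on the opposite strand.

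*XPA* (chr9:97674909-97697357, minus strand), which encodes the scaffold that verifies damage and positions the nucleases, had few counts. XPA-203 was its only transcript with counts, at 27 and 15 in resistant libraries and 13 and 2 in wild-type libraries. The sum was 0.564 ± 0.218 CPM in resistant libraries and 0.257 ± 0.259 CPM in wild-type libraries (SD, n = 2 each), and the groups overlapped. Its log2 fold change of 1.12 ± 1.11 (SE) had a 95% interval of -2.06 to 4.30 and an edgeR adjusted p of 0.838. XPA-204, which has all of its bases in coding exons, had 0 counts in all 4 libraries.

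*ERCC1*, *ERCC4* and *ERCC5* make the incisions. *ERCC1* (chr19:45407333-45478828, minus strand) encodes the partner that holds the ERCC4 nuclease on DNA. It had 48.2 and 22.9 CPM in resistant libraries and 34.9 and 31.7 CPM in wild-type libraries. The wild-type libraries lay between the resistant ones, which differed 2.10-fold, and the log2 fold change was 0.10 ± 0.47 (SE) with a 95% interval of -1.26 to 1.45 and an edgeR adjusted p of 0.972. ERCC1-217 had 1414 and 340 counts in resistant libraries and 743 and 401 in wild-type libraries, and its share of the gene was 78.0% and 40.5% in resistant libraries and 72.0% and 46.5% in wild-type libraries. ERCC1-206 had 270 and 389 counts in resistant libraries and 230 and 353 in wild-type libraries. In each group the library with more ERCC1-217 had less ERCC1-206. ERCC1-207 shares 180 bases with *CD3EAP*, a protein-coding gene on the opposite strand.

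*ERCC4* (chr16:13920157-13952345, plus strand) encodes XPF, the nuclease that cuts on the upstream side of the lesion. It had 22.1 and 15.1 CPM in resistant libraries and 11.7 and 33.2 CPM in wild-type libraries. The resistant libraries lay inside the wild-type range, with a log2 fold change of -0.27 ± 0.64 (SE), a 95% interval of -2.11 to 1.57 and an edgeR adjusted p of 0.942. ERCC4-208 had 518 and 300 counts in resistant libraries and 191 and 580 in wild-type libraries. ERCC4-206 had 193 and 198 counts in resistant libraries and 122 and 99 in wild-type libraries, without overlap, and an edgeR adjusted p of 0.955. ERCC4-206, ERCC4-202 and ERCC4-204 share exon bases with the antisense gene AC010401.1, and ERCC4-204 lies wholly within it.

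*ERCC5* (chr13:102807146-102876001, plus strand) encodes XPG, the nuclease that cuts on the downstream side. Its noncoding transcripts had 1325 and 1385 counts in resistant libraries and 871 and 952 in wild-type libraries, or 35.3 and 37.8 CPM in resistant libraries and 29.5 and 35.0 CPM in wild-type libraries. Both resistant libraries lay above both wild-type ones, by a margin smaller than the spread within either pair, as 22.5% of all genes did in that direction. This noncoding sum had a log2 fold change of 0.18 ± 0.28 (SE), with a 95% interval of -0.63 to 0.99 and an edgeR adjusted p of 0.904. The gene sum as tested also holds ERCC5-202, the protein-coding transcript in the table, which had 396 and 381 counts in resistant libraries and 483 and 390 in wild-type libraries. With it the groups overlapped and the log2 fold change was -0.02 ± 0.26 (SE), with a 95% interval of -0.75 to 0.72 and an edgeR adjusted p of 0.994. ERCC5-203 had 728 and 841 counts in resistant libraries and 761 and 568 in wild-type libraries. ERCC5-206 had 590 and 538 counts in resistant libraries and 102 and 380 in wild-type libraries, so both resistant libraries were above both wild-type ones, with a log2 fold change of 0.82 and an edgeR adjusted p of 0.968. That log2 fold change was 0.13 without wild-type replicate 1 and 2.15 without wild-type replicate 2. All noncoding *ERCC5* transcripts share exon bases with BIVM-ERCC5, an annotated readthrough gene on the same strand.

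**Figure D3:**
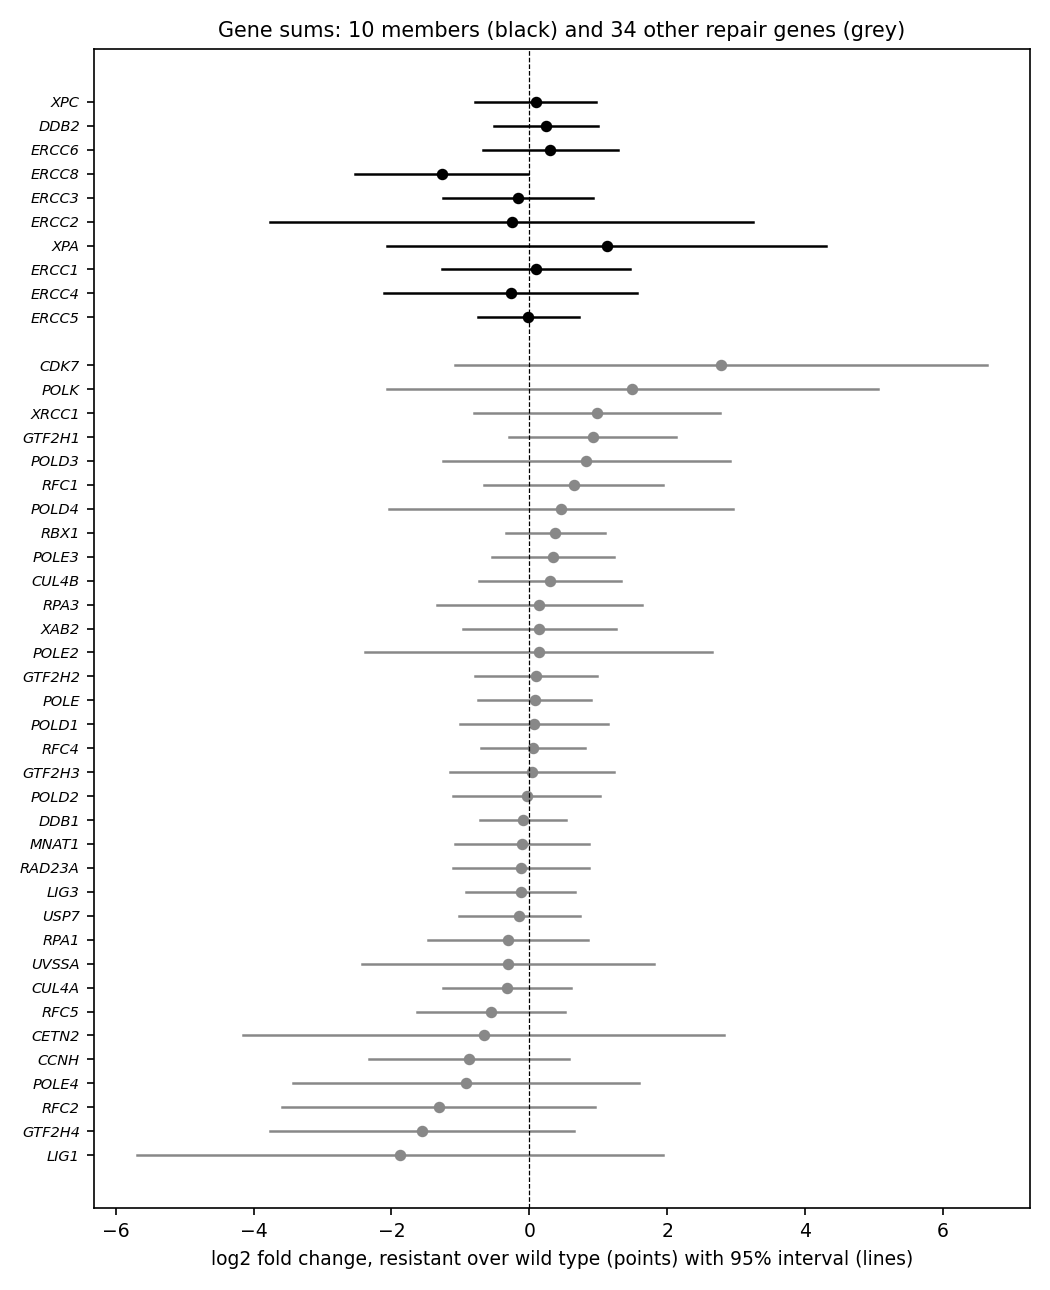
Log2 fold change of each gene sum, resistant over wild type, with its approximate 95% interval from the edgeR fit. The 10 genes are in black and 34 other repair genes in grey. The *ERCC5* sum includes its protein-coding transcript. All intervals but that of *ERCC8* (-2.53 to -0.02) cross 0, and that of *ERCC2* runs from -3.76 to 3.25. *ERCC8* did not pass the edgeR test, with an unadjusted p of 0.0505 and an adjusted p of 0.578.

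The width of these intervals sets what could be seen. For 3 of the 10 gene sums, *XPC*, *DDB2* and *ERCC5*, the 95% interval lay within 1 log2 unit of 0 on either side. For the other genes the interval held a difference of 2-fold or more in at least one direction.

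Single transcripts were tested as deposited. Of the 48, 42 had enough counts to be tested, 5 were at 0 in all 4 libraries (DDB2-214, ERCC6-211, ERCC8-206, ERCC2-207 and XPA-204), and ERCC5-205 had 7 and 6 counts in resistant libraries and 8 and 4 in wild-type libraries. By edgeR, 0 of the 42 passed an adjusted p of 0.05, against 0% of the 42393 transcripts tested, and 0 of 42 had an unadjusted p under 0.05, against 7.74%. DESeq2 also passed 0 of 42, against 5.33% of all transcripts adjusted and 11.1% unadjusted, and limma-voom 0 of 42, against 0% adjusted and 7.32% unadjusted. The groups did not overlap in 12 of 42, against 40.3% of all transcripts. In 8 of these resistant libraries were above wild-type ones, against 21.4% of all transcripts, and in 4 they were below, against 18.9%. The median log2 fold change of the 42 was 0.18, with a range of -2.15 to 2.04 and 23 of 42 above 0, against a median of 0.02 and 51.1% above 0 over all transcripts. No transcript of the 48 was at 0 in both libraries of one group and at 10 or more counts in both of the other. The share of all transcripts with that pattern was not counted.

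**Figure D4:**
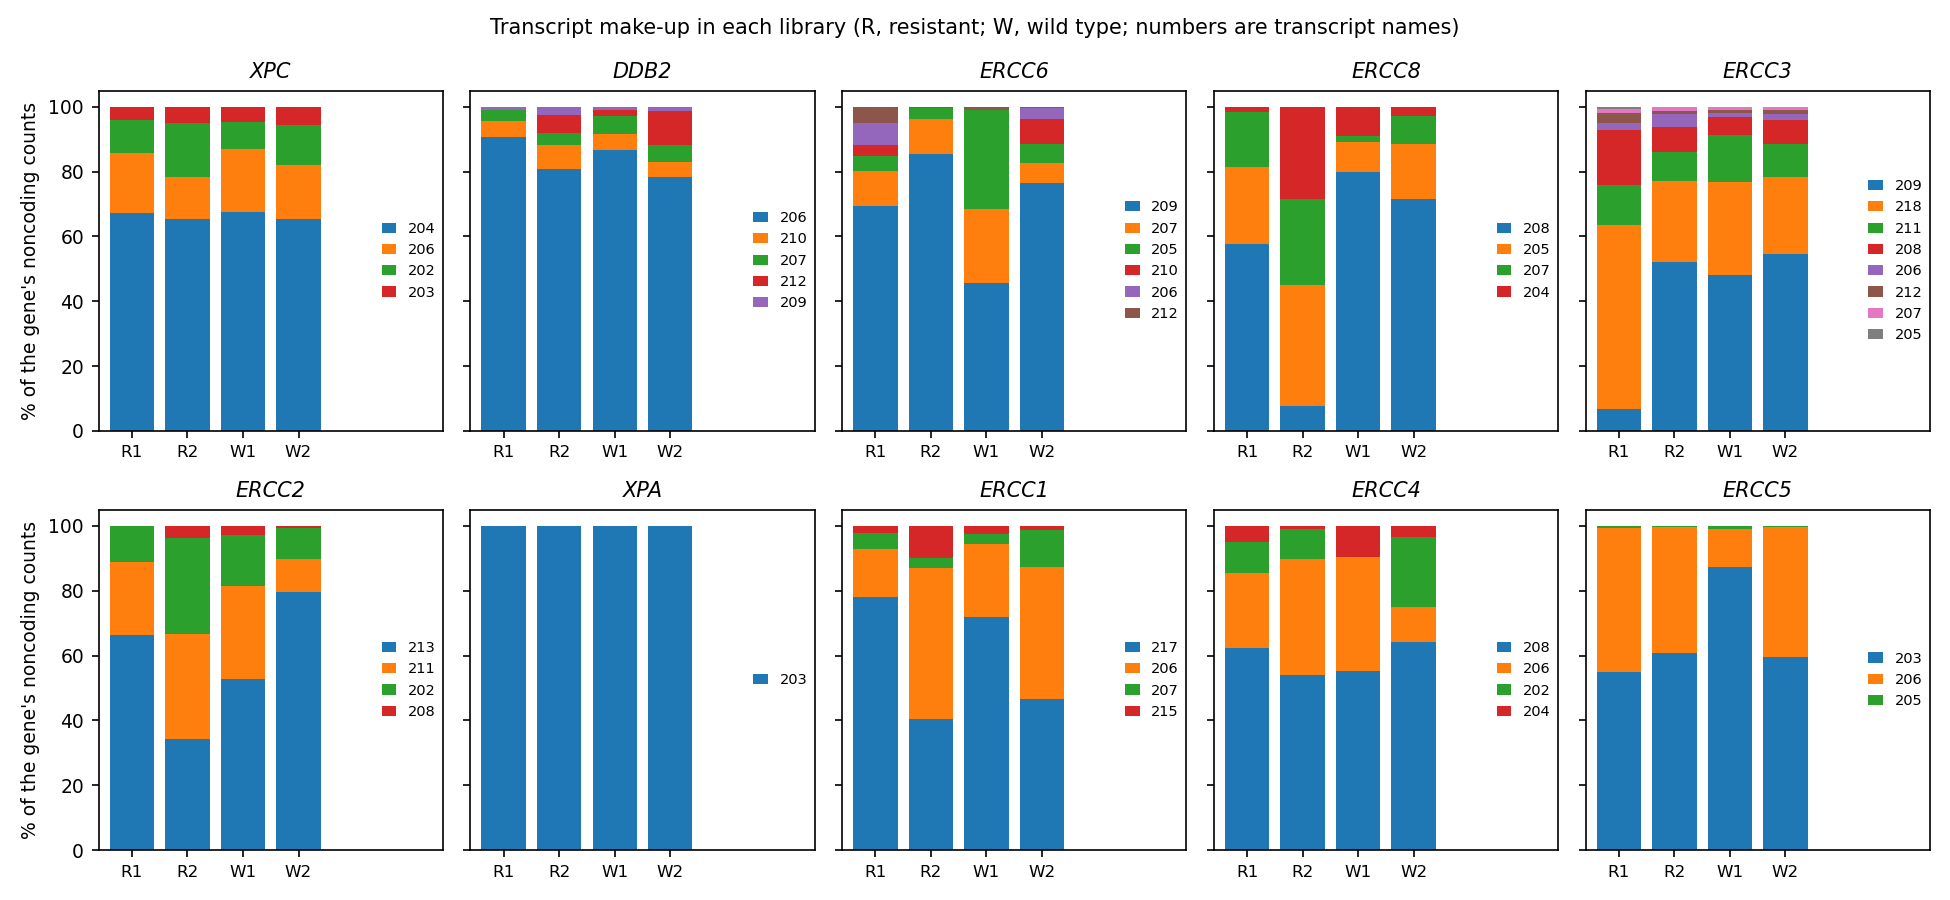
Share of each noncoding transcript in the noncoding counts of its gene, in percent, for resistant (R1, R2) and wild-type (W1, W2) libraries. *XPC*, *DDB2* and *ERCC4* keep 1 leading transcript at a like share in all 4 libraries, and *XPA* has only 1 transcript with counts. The leading share of *ERCC8* drops to 7.73% in R2 and that of *ERCC3* to 6.64% in R1.

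Whether transcript shares within a gene differed between the groups was tested separately with edgeR's diffSpliceDGE. Of the 9 genes with more than 1 tested transcript, 0 passed an adjusted p of 0.05, against 4.41% of the 7419 genes tested, and 0 had an unadjusted p under 0.05, against 12.5%. The lowest edgeR adjusted p was 0.974, for *ERCC8*. limma's diffSplice gave 0 of 9, adjusted and unadjusted, against 0.148% of genes adjusted and 7.32% unadjusted, with a lowest adjusted p of 0.787, again for *ERCC8*. The share of ERCC8-208 was below both wild-type shares in both resistant libraries, and far lower in resistant replicate 2, whereas the share of ERCC3-209 was low in resistant replicate 1 alone.

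Differences of more than 2-fold were counted between the libraries of each pair and between the group means. A mean of 2 libraries varies less than a single library. The count between means therefore tends to be lower even without a group difference, and the counts do not weigh one kind of difference against the other. Among the 42 tested transcripts, 17 differed more than 2-fold within the resistant pair and 18 within the wild-type pair, while 9 differed more than 2-fold between the group means. Over all tested transcripts these shares were 36.4% within the resistant pair, 41.7% within the wild-type pair and 31.4% between means. Of the gene sums, 2 of 10 differed more than 2-fold within the resistant pair (*ERCC2* and *ERCC1*), 3 within the wild-type pair (*ERCC2*, *XPA* and *ERCC4*) and 2 between the means (*ERCC8* and *XPA*). Over all tested genes these shares were 29.1% within the resistant pair, 33.3% within the wild-type pair and 26.1% between means. In 4 transcripts, chosen after their values were seen, a library at 0 stood beside one above 100 counts in the same group. How common such pairs were over all transcripts was not counted, so the 4 cannot be called particular to these genes. ERCC6-206 had 489 and 0 counts in resistant libraries and 0 and 184 in wild-type libraries. ERCC6-210 had 226 and 0 counts in resistant libraries and 0 and 451 in wild-type libraries, the same order of high and low libraries. The others were DDB2-212, with 0 and 428 counts in resistant libraries and 106 and 628 in wild-type libraries, and ERCC4-202, with 80 and 50 counts in resistant libraries and 0 and 193 in wild-type libraries.

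These transcripts share most of their sequence with other transcripts of their genes. They were 347 to 11026 bases long, and a median of 71.3% of their bases lay in exons of coding transcripts. In 39 of 48 more than 50% did, and in 3 (XPA-204, ERCC5-206 and ERCC6-206) all did. Of the tested transcripts, 9 had no base of their own among the transcripts in the table, and 7 of these 9 differed more than 2-fold within at least one pair. Of the other 33, 20 did. ERCC3-209 is among the 9, whereas 32.7% of ERCC8-208 was its own. Since all but 1 of the protein-coding transcripts of these genes were outside the table, reads of their mRNAs and of their noncoding transcripts cannot be told apart within the shared exons.

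Levels were compared between genes only per length. For this, the CPM of each noncoding transcript on the gene scale was divided by its length in kilobases and summed over the gene. In mean level over the 4 libraries *ERCC3* was highest at 113.9, followed by *ERCC6* at 110.7, *ERCC8* at 94.9 and *DDB2* at 94.6 CPM per kilobase. Their ranges over libraries overlapped from each to the next, and their order differed between the groups. By group mean *ERCC6* was highest in resistant libraries, at 108.1 ± 19.9, followed by *DDB2* at 102.7 ± 8.78, *ERCC3* at 102.2 ± 57.8 and *ERCC8* at 58.1 ± 31.6 CPM per kilobase. In wild-type libraries *ERCC8* was highest, at 131.7 ± 22.8, followed by *ERCC3* at 125.7 ± 3.70, *ERCC6* at 113.2 ± 38.4 and *DDB2* at 86.5 ± 11.0 CPM per kilobase (SD, n = 2 in each group). *DDB2* was above *ERCC5*, at 52.6 CPM per kilobase, in every library. Then came *ERCC1* at 39.3, *XPC* at 34.8, *ERCC4* at 30.7 and *ERCC2* at 26.7 CPM per kilobase, again with overlapping neighbours. *XPA* was lowest, at 0.799 ± 0.309 CPM per kilobase in resistant libraries and 0.363 ± 0.367 in wild-type libraries (SD, n = 2 each), below *ERCC2* in every library.

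The partners of these proteins were followed in a list of 40 other genes of the pathway, which covers damage recognition, TFIIH, the replication factors that fill the gap and the ligases. Of these, 34 had noncoding transcripts in the table and all 34 were tested; *RAD23B*, *ELOF1*, *GTF2H5*, *RPA2*, *PCNA* and *RFC3* were not analysed here. By edgeR 0 of 34 passed an adjusted p of 0.05, against 0% of all genes, and 0 had an unadjusted p under 0.05, against 8.67%. DESeq2 passed 0 adjusted, against 4.61% of all genes, and 1 unadjusted, against 12.3%. limma-voom passed 0 adjusted, against 0%, and 0 unadjusted, against 8.87%. The groups did not overlap in 10 of 34, against the 43% of all genes given above, with 5 higher in resistant libraries, against 22.5%, and 5 lower, against 20.5%. The median log2 fold change was 0.04, with 18 of 34 above 0, against 50.8% of all genes.

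The 4 genes of the list with the highest mean CPM, a level not corrected for length, were *MNAT1*, *DDB1*, *GTF2H3* and *CCNH*. *MNAT1* and *CCNH* encode the assembly factor and the cyclin of the TFIIH kinase, *GTF2H3* a TFIIH core subunit, and *DDB1* the partner of DDB2. The noncoding sum of *MNAT1* was 1117 and 1230 CPM in resistant libraries and 951 and 1579 CPM in wild-type libraries, and that of *DDB1* was 762 and 683 CPM in resistant libraries and 752 and 793 CPM in wild-type libraries. *GTF2H3* had 242 and 358 CPM in resistant libraries and 214 and 371 CPM in wild-type libraries. All 3 overlapped between the groups. *CCNH* had 121 and 275 CPM in resistant libraries and 307 and 422 CPM in wild-type libraries, so both resistant libraries were below both wild-type ones, with a log2 fold change of -0.88 ± 0.51 (SE) and an edgeR adjusted p of 0.720. *CDK7*, the TFIIH kinase itself, was picked after its values were seen as the gene that DESeq2 passed unadjusted, and had 21.3 and 357 CPM in resistant libraries and 22.9 and 32.1 CPM in wild-type libraries. Resistant replicate 2 alone stood high, and the edgeR adjusted p of *CDK7* was 0.696.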

How the data were processed

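Total RNA of 4 libraries was sequenced as paired-end reads of 150 bases, per the labels. In the table the authors deposited, each transcript has an estimated count per library, given as a whole number. This unit was read from the values. Which aligner, counting tool and annotation were used was not given in the sources used here. Per the submitters' processing notes the build was mm9, a mouse assembly, although 103347 of the 106179 identifiers are human Ensembl ones. Which human build was used is not given in the sources used here.

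Identifiers were matched to GENCODE release 29 (GRCh38), which named 84072 transcripts. The gene sums add all named transcripts of a gene. The test was edgeR 4.0.16 (quasi-likelihood, TMM, filterByExpr at a minimum count of 10, two-sided, Benjamini-Hochberg over all features, threshold 0.05) in R 4.3.3, on 13745 genes and 42393 transcripts. Wald intervals (95%) came from the fitted weights and the quasi-likelihood dispersion and are approximate. Transcript shares were tested with diffSpliceDGE, which called unchanged genes too often on simulated counts. DESeq2 1.42.0, limma 3.58.1, other scalings, no count filter, noncoding-only sums and leaving out each library were alternatives. No pair of libraries agreed within sampling noise (chi-square per transcript of 240.3 or more).

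The genes, lists and tests were chosen with earlier results of these data known. Transcripts named were the 2 of highest mean CPM per gene, any with an unadjusted p under 0.05, any seen in 1 group only, and any at 0 beside over 1000 counts in its pair; others are said to be chosen after their values were seen. Named genes of the pathway list were those with an unadjusted edgeR p under 0.05 or else the 4 of highest CPM.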

Additional observations from a re-analysis of the deposited data

How the results depend on the processing

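No gene sum, transcript or transcript share of the 10 genes passed the threshold under any alternative run. Over all genes DESeq2 called 633 gene sums and over all transcripts 2261, where edgeR called 0 and limma-voom 0; the cause was not tested. Calls of transcript shares over all genes, 327 in edgeR, were 11 in limma's diffSplice, 166 with no filter on low counts and between 51 and 247 when 1 library was left out. Libraries of the same replicate number showed no shared deviation (correlation of same-numbered deviations -0.015 over 14236 genes). This single value cannot show whether the cultures were paired, and the labels do not say. With the replicate block, 43 genes were called for transcript shares and 0 for gene sums and transcripts, and *ERCC2* (0.066) and ERCC1-217 (-0.027) changed sign in log2 fold change. Sign also changed for *ERCC5* (0.040) and XPC-206 (0.066) when scaled by library total alone, for *ERCC5* (0.18) in noncoding-only sums, an alternative chosen after seeing the data, and for *ERCC2* (0.078) and ERCC1-217 (-0.027) in limma-voom. In all, 76 of 80 values for gene sums and 111 of 114 for transcripts kept their direction.

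Leaving out 1 library changed the sign for 6 of 10 gene sums: *ERCC1* (-0.54 to 0.54), *ERCC2* (-1.52 to 1.81), *ERCC3* (-0.64 to 0.20), *ERCC4* (-0.83 to 0.67), *ERCC5* (-0.067 to 0.038) and *XPC* (-0.10 to 0.27). The sign changed without resistant replicate 1 for *ERCC1*, *ERCC3*, *ERCC5* and *XPC*, without resistant replicate 2 for *ERCC2*, and without wild-type replicate 2 for *ERCC2*, *ERCC4* and *ERCC5*. It did not change for *ERCC8* (-1.85 to -0.85), *DDB2* (0.07 to 0.41), *ERCC6* (0.03 to 0.65) or *XPA* (0.36 to 2.88). Among transcripts, 11 of 19 changed sign: ERCC1-206 (-0.53 to 0.21), ERCC1-217 (-1.08 to 0.92), ERCC2-211 (-0.14 to 1.61), ERCC2-213 (-2.66 to 2.00), ERCC3-209 (-3.59 to 0.24), ERCC4-208 (-0.95 to 0.78), ERCC5-203 (-0.26 to 0.032), ERCC6-207 (-0.43 to 0.82), ERCC8-205 (-0.62 to 0.49), XPC-204 (-0.10 to 0.29) and XPC-206 (-0.54 to 0.30). These fits leave 1 library in a group and assume it varies like the others. *XPA* had at most 27 counts in a library.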
